A study of Mus musculus with 8 samples.

Results

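The mouse genome holds a large family of genes for potassium channels, whose symbols begin with Kcn. Their peaks of histone H3 lysine 9 acetylation (H3K9ac) in the cerebellum are described here. RefSeq (GRCm38.p6) lists 94 protein-coding genes with such a symbol among 21887 placed on the nuclear chromosomes. A gene counted as detected in a library if a peak overlapped a window of 1 kb on either side of either gene end. Of the 94 genes, 40 were detected in at least 1 library and 54 in none.

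The libraries came from C57BL/6 mice aged 9 weeks: 4 from heterozygous 266Q knock-in mice, a model of spinocerebellar ataxia type 7 (SCA7), and 4 from wild type mice. The design text calls the knock-in mice symptomatic and the wild type mice littermates. Chromatin of cerebellar tissue was precipitated with an antibody to H3K9ac and sequenced, and each library was deposited as a list of peaks. SCA7 is caused by an expanded glutamine tract in ataxin-7, a subunit of the SAGA complex, which acetylates histone H3. The labels do not state the promoter or allele construct of the model, whether animals were pooled, or whether each replicate was a separate animal.

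Potassium channels let potassium ions leave or enter a cell and so set its resting potential, end its action potentials and shape its firing rate. Voltage-gated subunits open on depolarisation, and silent modifier subunits only work when joined to them. Calcium- or sodium-activated channels open when those ions enter the cell, inward rectifiers hold the membrane near rest, and two-pore channels carry a leak current. Auxiliary subunits change the traffic and gating of the pore-forming ones. In the cerebellum, Purkinje cells rely on fast voltage-gated and calcium-activated channels for rapid regular firing, and granule cells on leak and transient currents. H3K9ac is found around the start sites of active genes.

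RefSeq promoters were available for 69 of the 94 genes. A promoter here is 300 bases, from 250 before the listed start site into the first 50 after it, printed 5′ to 3′ on the gene's strand. The following 4 had a peak over them in 3 or 4 libraries, and their genes were detected in 5 or more libraries, so they show the sequence under the mark. They are Kcnc1 at chr7:46396218-46396517 on the plus strand, Kcnd3 at chr3:105451640-105451939 on the plus strand, Kcnk12 at chr17:87797945-87798244 on the minus strand and Kcnc4 at chr3:107458849-107459148 on the minus strand. Capitals mark the GC box, GGGCGG, or the same motif read from the other strand, CCGCCC.
Kcnc1: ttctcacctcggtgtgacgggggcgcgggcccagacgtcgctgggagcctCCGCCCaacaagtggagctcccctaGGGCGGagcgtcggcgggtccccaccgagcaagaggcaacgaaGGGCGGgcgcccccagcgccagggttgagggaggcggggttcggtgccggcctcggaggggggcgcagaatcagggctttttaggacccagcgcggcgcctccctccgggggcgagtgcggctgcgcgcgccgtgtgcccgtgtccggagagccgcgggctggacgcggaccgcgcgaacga
Kcnd3: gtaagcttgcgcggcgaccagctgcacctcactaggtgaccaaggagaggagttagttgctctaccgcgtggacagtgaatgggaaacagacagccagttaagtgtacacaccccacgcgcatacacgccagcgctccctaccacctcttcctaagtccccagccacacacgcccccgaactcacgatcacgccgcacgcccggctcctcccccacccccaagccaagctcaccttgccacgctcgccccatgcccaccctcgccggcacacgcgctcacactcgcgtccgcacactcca
Kcnk12: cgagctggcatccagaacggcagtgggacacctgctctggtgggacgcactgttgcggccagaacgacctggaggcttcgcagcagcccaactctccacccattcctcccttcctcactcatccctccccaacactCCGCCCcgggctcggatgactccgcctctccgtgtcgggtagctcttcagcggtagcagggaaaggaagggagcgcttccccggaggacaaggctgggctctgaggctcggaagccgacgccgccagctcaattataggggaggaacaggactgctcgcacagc
Kcnc4: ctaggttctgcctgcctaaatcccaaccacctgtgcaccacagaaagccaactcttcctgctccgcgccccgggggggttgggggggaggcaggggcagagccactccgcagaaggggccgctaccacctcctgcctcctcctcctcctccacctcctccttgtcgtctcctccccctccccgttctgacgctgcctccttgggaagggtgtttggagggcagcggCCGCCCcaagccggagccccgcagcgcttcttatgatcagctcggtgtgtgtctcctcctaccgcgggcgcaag

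A pair of promoters of the same voltage-gated subfamily shows the contrast among genes with no peak at either gene end. Kcna2, at chr3:107101317-107101616 on the plus strand, had a peak over its promoter in 4 libraries, but this start site lies inside the gene. Kcna6, at chr6:126740625-126740924 on the minus strand, had no peak over its promoter in any library.
Kcna2: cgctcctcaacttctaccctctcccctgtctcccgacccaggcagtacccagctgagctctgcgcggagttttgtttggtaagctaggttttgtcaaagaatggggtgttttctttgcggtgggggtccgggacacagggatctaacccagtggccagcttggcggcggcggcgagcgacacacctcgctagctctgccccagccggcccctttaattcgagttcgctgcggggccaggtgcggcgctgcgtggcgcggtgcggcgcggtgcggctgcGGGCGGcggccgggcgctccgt
Kcna6: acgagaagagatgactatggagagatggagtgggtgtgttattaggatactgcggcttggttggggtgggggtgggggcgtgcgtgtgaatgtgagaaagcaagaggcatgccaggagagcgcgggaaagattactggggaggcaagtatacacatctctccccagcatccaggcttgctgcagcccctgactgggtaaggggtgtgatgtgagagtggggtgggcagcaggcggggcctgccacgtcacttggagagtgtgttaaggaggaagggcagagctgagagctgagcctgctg

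The GC content of these promoters was 74.7% for Kcnc1, 64% for Kcnd3, 64.3% for Kcnk12, 66.7% for Kcnc4, 66.7% for Kcna2 and 58.3% for Kcna6. Kcnc1 held 3 GC boxes, Kcnk12, Kcnc4 and Kcna2 held 1 each, and Kcnd3 and Kcna6 held 0. CpG dinucleotides numbered 41 in Kcnc1, 31 in Kcna2, 25 in Kcnd3, 20 in Kcnk12, 17 in Kcnc4 and 8 in Kcna6. The promoter without a peak thus had the fewest CpG of the 6 shown.

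Across all listed Kcn promoters, those under a peak were richer in GC and CpG than those without one, as were promoters of all protein-coding genes. The 15 Kcn promoters with a peak over them in all of replicates 1 and 2 of both genotypes had a median GC content of 66.7%, and the 63 with no peak in any library had 55%. The ratio of observed to expected CpG had a median of 0.842 in the 15 and 0.322 in the 63. A GC box was present in 73.3% of the 15 and 39.7% of the 63. Over all protein-coding genes, the 4446 promoters with such peaks had a median GC content of 68%, a CpG ratio of 0.873 and a GC box in 79.1%, and the 12145 without a peak had 50.3%, 0.272 and 26.7%. A GC box was in 46.2% of all 21263 listed promoters. Promoters of 1 gene can overlap and genes are not independent samples, so these shares are descriptions without a test. The cyclic AMP element TGACGTCA was in 0 of the 94 Kcn promoters and in 2.23% of all promoters.

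The peak lists were not alike in length. Replicates 1 and 2 of both genotypes held 7735 to 11409 peaks with median widths of 1065 to 1246 bp and are called the long lists below. Replicates 3 and 4 held 1266 to 5571 peaks with median widths of 132 to 148 bp and are called the short lists. The lists carry no read depth, so a missing peak does not show that acetylation was absent. Defining markers of granule cells, the most numerous cerebellar neurons, had gene-end peaks in 14, 14, 9 and 1 of 14 genes in knock-in replicates 1 to 4 and in 14, 12, 4 and 4 in wild type replicates 1 to 4. Purkinje cell markers had them in 5, 6, 1 and 0 of 11 genes in the knock-in libraries, against 3, 4, 2 and 0 in the wild type ones. None of 8 interneuron markers was detected in any library. Markers of astrocytes and Bergmann glia, oligodendrocytes, microglia, vessels and other tissues each had at most 2 detected genes in a library, from lists of 8 or 9. The part of cell composition in the results below was not tested, and in whole tissue fewer cells of a type and less of the mark per cell cannot be told apart.

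Kcn genes carried gene-end peaks about as often as other genes. Knock-in replicates 1 to 4 had a peak at 33, 31, 11 and 4 Kcn genes, and wild type replicates 1 to 4 at 25, 24, 6 and 1. Knock-in was above wild type at each replicate number, and the groups overlapped because the short lists of both lay below the long lists of both. The mean was 19.75 ± 14.5 Kcn genes in knock-in libraries and 14 ± 12.3 in wild type libraries (SD, n = 4 each), where the SD covers long and short lists together. Within the long lists it was 32 ± 1.41 in knock-in libraries and 24.5 ± 0.707 in wild type libraries (SD, n = 2 each), a gap larger than the spread, in the same direction as that of all genes. Within the short lists it was 7.5 ± 4.95 in knock-in libraries and 3.5 ± 3.54 in wild type libraries (SD, n = 2 each), a gap smaller than the spread in knock-in.

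Set against all genes, the Kcn share was 35.1% of Kcn genes and 39.1% of all genes in knock-in replicate 1, and 33.0% and 36.2% in knock-in replicate 2. In wild type it was 26.6% and 31.9% in replicate 1, and 25.5% and 27.8% in replicate 2. In the short lists the Kcn share was 11.7% and 4.26% in knock-in replicates 3 and 4, where all genes had 10.4% and 0.896%. It was 6.38% and 1.06% in wild type replicates 3 and 4, where all genes had 5.43% and 1.46%. The Kcn share was therefore below that of all genes in all 4 long lists and above it in 3 of the 4 short ones. Over all libraries, 40 of 94 Kcn genes (42.6%) and 9851 of all 21887 genes were detected at least once, and 23.4% and 22.9% in all 4 long lists.

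**Figure D1:**
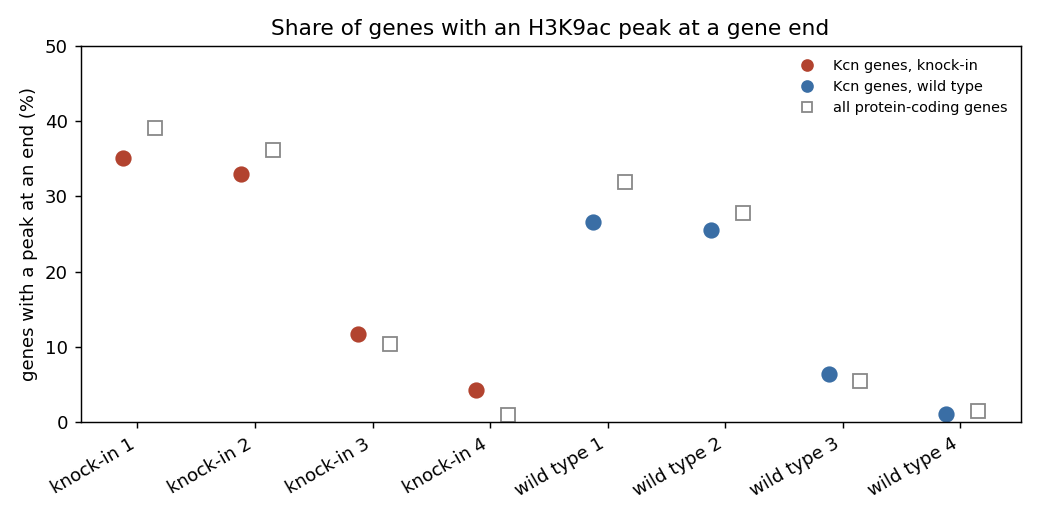
Share of the 94 Kcn genes (filled circles, red for knock-in and blue for wild type) and of all 21887 protein-coding genes (open squares) with an H3K9ac peak at a gene end, in percent, for each of the 8 libraries. The Kcn shares run from 35.1% in knock-in replicate 1 to 1.06% in wild type replicate 4 and lie near the share of all genes in the same library.

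By role, voltage-gated genes gave the most detected members. Of 30 voltage-gated genes, 16 were detected at least once, 10 in all 4 long lists and 6 in 5 or more libraries. Of 16 auxiliary genes, 7 were detected at least once and 5 in all 4 long lists. Of 14 two-pore genes, 6 were detected and 2 were in all 4 long lists. Of 15 inward rectifiers, 4 were detected and 3 were in all 4 long lists. Of 8 calcium- or sodium-activated genes, 4 were detected and 2 were in all 4 long lists. Of 10 modifier genes, 3 were detected and 0 were in all 4 long lists. Kcnrg, a soluble regulator rather than a channel, was not detected.

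**Figure D2:**
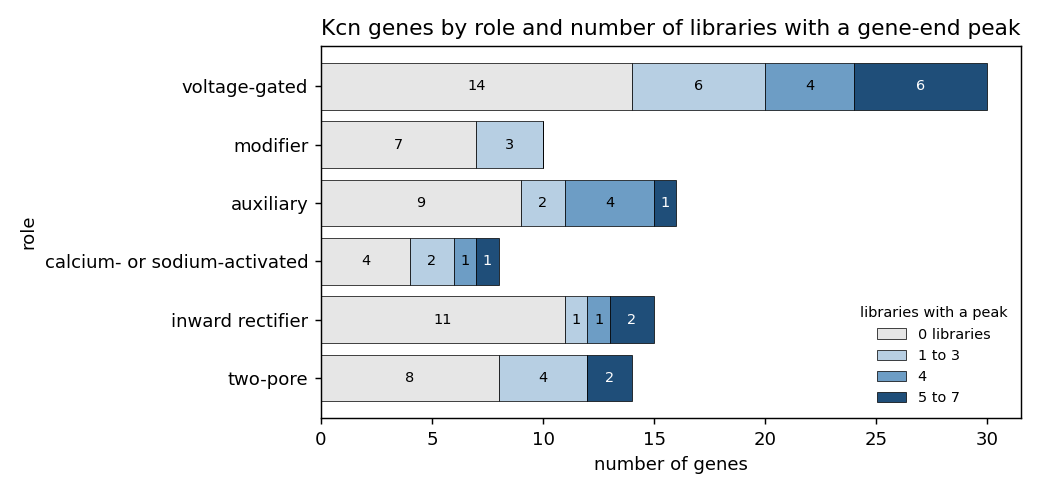
Number of Kcn genes of each role, divided by how many of the 8 libraries held a peak at a gene end (grey for 0 libraries, darker blue for more). Voltage-gated genes fill the longest bar, with 6 of 30 in 5 to 7 libraries, and no modifier gene is beyond the class of 1 to 3 libraries. Kcnrg is left out.

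Within roles the subfamilies were uneven. Of the Kcnq genes, whose channels carry the M-current, 4 of 5 were detected, and of the Kcnj inward rectifiers 4 of 15. Kcna, the Shaker subfamily, had 2 of 8 detected, Kcnab 2 of 3, Kcnb 2 of 2, Kcnc 2 of 4, Kcnd 2 of 3, Kcnh 4 of 8, Kcnip 2 of 4, Kcnk 6 of 14, Kcnmb 2 of 4, Kcnn 2 of 4 and Kcnt 1 of 2. Kcnma1, the only gene of its subfamily, was detected. Among the modifiers and the Kcne auxiliary genes, Kcng had 1 of 4 detected, Kcns 2 of 3, Kcne 1 of 5, Kcnf 0 of 1 and Kcnv 0 of 2. Kcnu1, the pore of a sperm channel, was not detected.

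Of the voltage-gated genes, Kcnc1 and Kcnd3 were detected in 7 libraries each. Kcnc1 lies on chromosome 7 at 46396219 to 46438706 and encodes a fast delayed rectifier that lets neurons fire at high rates. The summed width of its gene-end peaks was 3200, 3216, 307 and 179 bp in knock-in replicates 1 to 4, against 3151, 3344 and 259 bp in wild type replicates 1 to 3, with no gene-end peak in wild type replicate 4. The genotypes overlapped in bp within the long lists. Relative to the median width of each library, both wild type values of Kcnc1 there were above both knock-in values. Its strongest peak stood at percentile 99.1, 99.3, 94.2 and 71.0 of its list by score in knock-in, and at 99.8, 99.5 and 92.5 in wild type, where the percentile is the rank of a peak's score among all peaks of the same list.

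Kcnd3, on chromosome 3 at 105451890 to 105674002, encodes a transient potassium channel, and its human counterpart is a spinocerebellar ataxia gene. Its gene-end peaks summed to 2264, 1692, 612 and 347 bp in knock-in replicates 1 to 4, against 1506, 1513 and 461 bp in wild type replicates 1, 2 and 4, with none in wild type replicate 3. Both knock-in long lists had a wider value in bp than both wild type long lists, but relative to the median width of each library the groups overlapped. Kcnd3 was the only Kcn gene detected in wild type replicate 4. The long non-coding gene Kcnd3os overlaps the same start and was covered by the same peaks.

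Kcnh2, which encodes an ether-a-go-go related channel, had widths of 1430, 1526 and 350 bp in knock-in replicates 1 to 3, against 1524, 1149 and 194 bp in wild type replicates 1 to 3. The genotypes overlapped in the long lists. Kcnc4, of the same subfamily as Kcnc1, and Kcnq3, a subunit of the M-current, were each detected in 3 knock-in and 2 wild type libraries. Kcnc4 had a peak of high width but low rank in knock-in replicate 2, with 2079 bp at percentile 0.222.

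Among the auxiliary genes, Kcnip4, whose calcium-binding product joins the channels of the Kcnd subfamily, was the most often detected. Its widths were 1554, 1584 and 180 bp in knock-in replicates 1 to 3, against 1729 and 1469 bp in wild type replicates 1 and 2. The widths in bp in the long lists of both genotypes overlapped. Relative to the median width of each library, both wild type values of Kcnip4 there were above both knock-in values. Kcnab2, Kcnab3, Kcnip3 and Kcnmb4 were detected in exactly the 4 long lists. Some peaks at Kcnab2 and Kcnab3 also fell in the gene-end windows of Nphp4 and Trappc1, so they cannot be given to the channel gene alone. Likewise the peaks at Kcnmb4 also covered an end of the non-coding gene Kcnmb4os2. Kcne1 was detected in knock-in replicate 4 alone by a peak of 145 bp, beyond its gene end at percentile 25.3.

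Of the ion-activated genes, Kcnt1, a sodium-activated channel, had widths of 1503, 1453 and 186 bp in knock-in replicates 1 to 3, against 1438 and 1475 bp in wild type replicates 1 and 2. Kcnma1, the pore of the large-conductance calcium-activated channel, had 1390 and 1486 bp in the 2 knock-in long lists, against 1727 and 1496 bp in the 2 wild type long lists. Both wild type values of Kcnma1 were above both knock-in values.

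Of the inward rectifiers, Kcnj12, a strong rectifier on chromosome 11 at 61022564 to 61073269, was detected in 7 libraries. Its widths were 3288, 4496, 425 and 142 bp in knock-in replicates 1 to 4, against 3849, 2268 and 241 bp in wild type replicates 1 to 3. Its median score percentile over the long lists was 99.4, which equalled that of Kcnc1 to this precision. Kcnj11, the pore of the ATP-sensitive channel, had 1324, 1343 and 225 bp in knock-in replicates 1 to 3, against 1194 and 1173 bp in wild type replicates 1 and 2. Both knock-in long lists were above both wild type long lists at Kcnj11 in bp, but relative to the median width of each library its log2 difference was -0.07.

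Of the two-pore genes, Kcnk12 and Kcnk3 were each detected in replicates 1 to 3 of both genotypes and had the highest median summed width of the family over the long lists. Kcnk12 had 4905, 3606 and 557 bp in knock-in replicates 1 to 3, against 4729, 3716 and 438 bp in wild type replicates 1 to 3, with peaks at both its start and its end in the long lists. Kcnk3, an acid-sensitive leak channel, had 3592, 4171 and 468 bp in knock-in, against 4162, 2265 and 125 bp in wild type. In bp the genotypes overlapped at both genes. Relative to the median width of each library, both wild type long lists were above both knock-in long lists at Kcnk12.

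**Figure D3:**
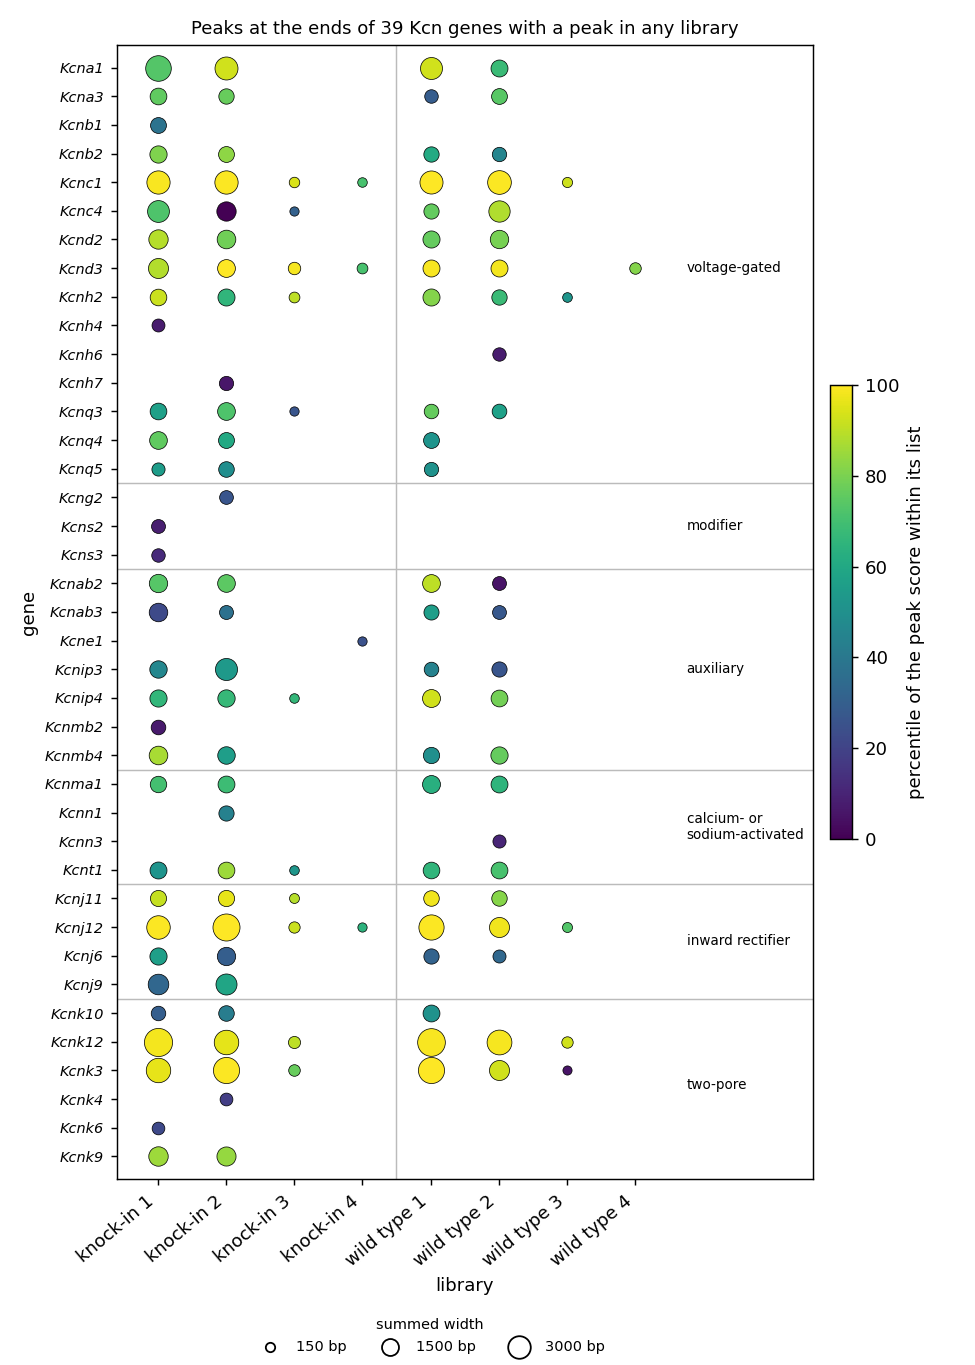
Gene-end peaks of 39 of the 40 detected Kcn genes (rows, grouped by role) in the 8 libraries (columns, knock-in left of wild type). Circle area grows with the summed width in bp, colour gives the score percentile of the strongest peak within its list, and a blank means no gene-end peak. Filled columns are those of replicates 1 and 2, and Kcnc1, Kcnd3 and Kcnj12 have 7 circles each.

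The comparison of knock-in with wild type asks whether peaks at these genes differ in SCA7 mice beyond a shift shared by all genes. No Kcn gene passed the test for a difference in detection. A conditional exact test per gene, which fixes how many libraries hold a peak at the gene and allows for the detection odds of each, called 0 of 9826 genes at an adjusted p under 0.05 (percent called 0), with 90 genes (0.916%) at an unadjusted p under 0.05. The odds were 71.4 and 41.8 in the knock-in long lists, against 19.0 and 8.92 in the wild type long lists. They were fitted over all genes, so a shift of all genes between the genotypes is taken up by them and is not tested. Among the 40 Kcn genes tested, 0 were called and 0 had an unadjusted p under 0.05. The smallest p was 0.198 (adjusted p = 1, conditional exact test). Fisher's exact test called 0 of the 9826, with 0 at an unadjusted p under 0.05 and a smallest Fisher p of 0.143. With 4 libraries per genotype it could call a gene after adjustment only if most genes split fully by genotype. Its result therefore decides nothing here. A peak was present in more knock-in than wild type libraries at 24 of the 40 Kcn genes, where the share among all 9851 detected genes was 48%. It was present in more wild type libraries at 3, among them Kcnh6 and Kcnn3, where the share among all detected genes was 11.6%. The other 13 were equal.

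Only Kcnj9 and Kcnk9 differed by 2 libraries, each with a gene-end peak in both knock-in long lists and absent from every wild type list. They are 2 of 27 Kcn genes detected in both knock-in long lists, or 7.41%, where the share among all 7100 such genes was 10.4%. The reverse pattern was found at 0 of 22 Kcn genes and at 0.732% of 5331 genes. Kcnj9 and Kcnk9 each had a conditional exact p of 0.501 (adjusted p = 1). This p depends only on how many libraries of each genotype hold a peak. Any gene found in 2 knock-in and 0 wild type libraries gets 0.501, so neither gene could have been called.

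Kcnk9, an acid-sensitive leak channel of granule cells, lies on chromosome 15 at 72501873 to 72548614. Its knock-in peaks were 2108 and 2025 bp wide and came within 628 and 555 bp of the gene end. Wild type replicates 1 and 2 had peaks of 1497 and 1203 bp over the same place, 72545968 to 72547464 and 72546141 to 72547343, which ended 1150 and 1271 bp from the gene end, just outside the window. Both genotypes therefore had a peak inside Kcnk9 in both long lists, and with a window of 3 kb it was detected in equal shares of both. The score percentiles were 85.2 and 84.4 in knock-in, against 66.3 and 50.8 in wild type.

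Kcnj9, a subunit of the channel opened by G proteins, lies on chromosome 1 at 172320508 to 172329322. Its knock-in peaks were 2421 and 2550 bp wide and covered the gene end. The nearest wild type peaks lay 1781 and 6776 bp away in replicates 1 and 2. Inside the gene, wild type replicate 1 had 3 peaks of 518 to 1648 bp, and wild type replicate 2 had none within 1 kb of the gene.

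Width was a further readout, and no Kcn gene passed its test between the genotypes either. The 22 Kcn genes detected in all 4 long lists were tested with limma on log2 summed width, using the 2 long lists of each genotype, with each library centred on its median and all 5008 genes with a peak in those lists fitted together. Of the 5008, 0 were called wider and 0 narrower in knock-in (percent called 0 in each direction), with 279 at an unadjusted p under 0.05 (5.57%). Of the 22 Kcn genes, 0 were called and 1 had an unadjusted p under 0.05. Centring takes out a width shift shared by all genes, so the test covers only differences beyond it. The centred difference was positive at 13 of the 22 and negative at 9, where 46.6% of all 5008 were positive, and the median was 0.11 for the 22 and -0.02 for all. Without knock-in replicate 1, or without wild type replicate 1, 9 were positive and 13 negative; each of these fits leaves 1 library in a group, which is assumed to vary like the other group. Without centring, 19 were positive and 3 negative, where 79% of all genes were positive and the median of all genes was 0.22. In bp, both knock-in values were above both wild type values at 9 of the 22 genes and below them at 1, where the shares of all 5008 genes were 36.6% and 4.21%. After centring the counts were 5 and 5, where the shares of all genes were 15.3% and 19.9%. The 5 above were Kcna1, Kcnb2, Kcnip3, Kcnj6 and Kcnq3, and the 5 below were Kcnc1, Kcnip4, Kcnk12, Kcnma1 and Kcnt1.

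The smallest width p among Kcn genes belonged to Kcnj6, another subunit of the channel opened by G proteins. Its width was 1555 and 1838 bp in the 2 knock-in long lists, against 1132 and 713 bp in the 2 wild type long lists, and the groups did not overlap. The centred log2 difference was 0.67 (SE 0.26, limma adjusted p = 0.843). Kcnip3, a calcium-binding auxiliary subunit, had 1598 and 2842 bp in knock-in, against 993 and 1123 bp in wild type, with a difference of 0.77 (SE 0.34, limma adjusted p = 0.867). These sums cover different peaks. The start of Kcnip3 had peaks of 1598 and 1455 bp in the 2 knock-in long lists, against 1123 bp in wild type replicate 2 and none in wild type replicate 1. Its end had peaks of 1387 bp in knock-in replicate 2, against 993 bp in wild type replicate 1. With the widest single peak in place of the sum, the difference was 0.30. Kcna1, a low-threshold channel whose human counterpart is an episodic ataxia gene, had 3984 and 3130 bp in knock-in, against 2818 and 1504 bp in wild type, with a difference of 0.53 (SE 0.29, limma adjusted p = 0.889). In wild type replicate 2 a separate peak of 2538 bp, at 126641896 to 126644433 on chromosome 6, lay directly beside the peak of 1504 bp, just outside the window. With a window of 3 kb, which takes it in, the Kcna1 width of wild type replicate 2 was 4042 bp, above both knock-in values, and the difference was -0.20.

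Widths spread widely over the family. The median summed width over the 4 long lists was 4222.5 bp at Kcnk12, 3877 bp at Kcnk3, 3568.5 bp at Kcnj12, 3208 bp at Kcnc1 and 2974 bp at Kcna1. At the narrow end it was 989 bp at Kcnab3, 1199.5 bp at Kcna3 and 1200.5 bp at Kcnb2. Among all genes with a peak in the same list, the width of Kcnk12 ranked at percentile 98.5 to 99.7 in the long lists, and that of Kcnc1 at 97.3 to 99.3. The sum at Kcnk12 joins peaks at both gene ends. By the widest single peak the highest medians were 3877 bp at Kcnk3, 3323 bp at Kcnj12 and 3208 bp at Kcnc1, and Kcnk12 had 2886.5 bp.

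**Figure D4:**
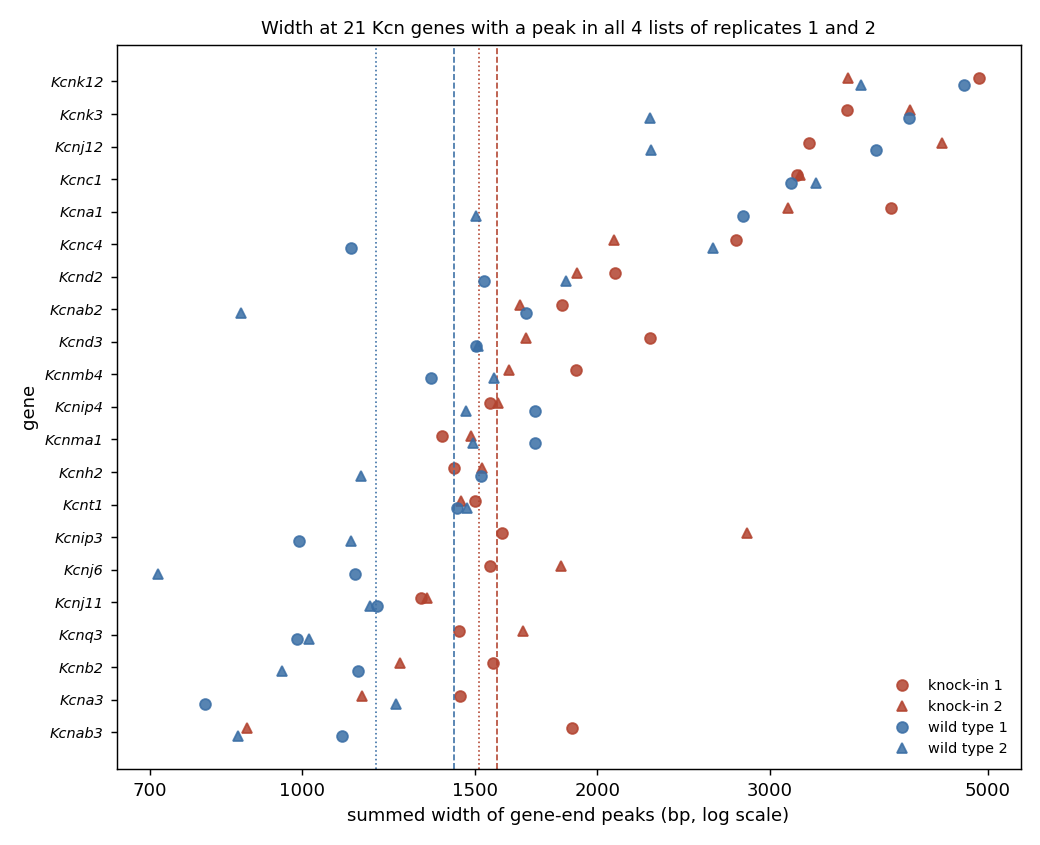
Summed width of gene-end peaks (bp, log scale) at 21 of the 22 Kcn genes with a peak in all 4 lists of replicates 1 and 2, ordered by median, with red for knock-in, blue for wild type, circles for replicate 1 and triangles for replicate 2. Vertical lines give each library's median over the 5008 genes tested (dashed for replicate 1, dotted for replicate 2), at 1582 and 1515 bp in knock-in and 1429 and 1191.5 bp in wild type. Kcnk12 has the widest median. Both knock-in points lie above both wild type points at 9 genes, and both wild type points above both knock-in points at 1, Kcnma1.

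By score rank, detected Kcn genes stood above the typical detected gene in every list. The median percentile of the strongest gene-end peak was 72.0, 68.5, 88.9 and 67.4 over Kcn genes in knock-in replicates 1 to 4, where all detected genes had 57.5, 62.2, 63.6 and 45.6. It was 76.3, 72.5, 75.5 and 81.3 in wild type replicates 1 to 4, where all detected genes had 65.7, 57.4, 60.9 and 52.8. The short lists held few Kcn genes, 4 in knock-in replicate 4 and 1 in wild type replicate 4. The highest median percentiles over the long lists were 99.4 at Kcnj12, 99.4 at Kcnc1, 98.6 at Kcnd3, 98.4 at Kcnk12 and 97.9 at Kcnk3. Several genes detected in a single library ranked low, such as Kcnh4 at percentile 7.57 in knock-in replicate 1, Kcnh6 at 7.68 in wild type replicate 2 and Kcnn3 at 10.4 in wild type replicate 2. The peak at Kcnh6 also fell in a gene-end window of Dcaf7.

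The gene-end rule missed several Kcn genes that carried peaks inside the gene. Of the 54 genes without a gene-end peak, 14 had a peak inside the gene in at least 1 library, 7 of them in 4 or more libraries, and 40 had no peak in or within 1 kb of the gene. Counting peaks anywhere in the gene or within 1 kb of it, a rule chosen after seeing these peaks, 54 Kcn genes were detected at least once, or 57.4%, where all genes had 52.6%. In all 4 long lists the counts became 32 Kcn genes, or 34.0%, where all genes had 26.9%.

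Kcna2, a low-threshold channel of axons, had inner peaks in the long lists alone, of 3070 and 2172 bp in the 2 knock-in long lists, against 1776 and 1432 bp in the 2 wild type long lists. These peaks lay over the promoter printed above. Kcnj3, a partner subunit of Kcnj6 and Kcnj9, had inner peaks whose widest measured 3202 and 3325 bp in the 2 knock-in long lists and 143 bp in knock-in replicate 4, against 2820 and 1443 bp in the 2 wild type long lists. Kcnk1, a weakly inward-rectifying two-pore channel, had inner peaks in 3 knock-in and 3 wild type libraries. Kcnn2, a small-conductance calcium-activated channel of Purkinje cells, had 1706 and 1881 bp in the 2 knock-in long lists, against 2168 and 1311 bp in the 2 wild type long lists.

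Kcnk10, a two-pore channel opened by stretch, was detected in few libraries by the gene-end rule. Its gene-end windows held a peak in 2 knock-in libraries and 1 wild type library, while the gene held a peak in all 8 libraries. In wild type replicate 4, the list with the fewest detected Kcn genes, its inner peak was 224 bp wide and stood at percentile 93.7. In knock-in replicate 4 it was 186 bp wide and stood at percentile 19.2. Kcnc1 was the other Kcn gene with a peak in or within 1 kb of the gene in all 8 libraries.

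Under the same wider rule, 3 Kcn genes differed by 2 libraries between the genotypes. The share of all genes that differed so is not given here. Kcnab1, an auxiliary subunit, and Kcnip1, a calcium-binding one, were each found in 2 knock-in libraries against 0 wild type libraries. The peaks of Kcnab1 lay at different places, 65108886 to 65110114 in knock-in replicate 1 and 65204444 to 65204582 in knock-in replicate 3. Kcnh1, an ether-a-go-go channel, was found in 2 knock-in libraries against 4 wild type libraries. A peak over its listed start site was present in knock-in replicates 1 and 2 and in wild type replicates 1 to 3. The peaks of wild type replicate 4 lay 144111 and 263263 bp from that site. Wild type replicates 1 and 3 also had a peak at the farther place, 263008 and 263256 bp from the site, and no knock-in library did. Peaks at 254198 bp in knock-in replicate 1 and 254125 bp in wild type replicate 1 shared another place. The inner peaks of Kcnh1 had a widest value of 1306 and 1122 bp in the 2 knock-in long lists, against 1496, 1091, 127 and 112 bp in wild type replicates 1 to 4. Of the 52 Kcn genes tested under this rule, the conditional exact test called 0, with 0 at an unadjusted p under 0.05, and of all 11436 genes it called 0, with 147 at an unadjusted p under 0.05.

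Of the 28 genes on a list of potassium channels known from the cerebellum, 19 were detected at a gene end and 15 in all 4 long lists. The 9 without a gene-end peak included Kcna2, Kcna6, Kcnc2, Kcnip1, Kcnj3, Kcnj10, Kcnk1 and Kcnn2. Of these, Kcnip1 had inner peaks in both knock-in long lists and in none of the wild type lists. Its peak in knock-in replicate 1 was 1308 bp wide at percentile 45.6. The peak of knock-in replicate 2 that overlapped it was 809 bp wide at percentile 19.4. Another peak of knock-in replicate 2, 1154 bp wide at percentile 43.7, lay elsewhere in the gene. Kcnj10, the inward rectifier of glia, had its nearest peak 2150 and 2160 bp from a gene end in the 2 knock-in long lists, against 13669 and 2408 bp in the 2 wild type long lists. Kcna6 and Kcnc2 had no peak in or within 1 kb of the gene in any library.

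The position of a peak against the start site differed between the long and the short lists. Kcn peaks within 2 kb of a listed start site were counted once for each such site. Of these, 29 of 35 and 26 of 31 lay over the start in knock-in replicates 1 and 2. The counts were 18 of 26 and 17 of 23 in wild type replicates 1 and 2. In the short lists most lay wholly downstream, 11 of 13 and 6 of 6 in knock-in replicates 3 and 4, and 5 of 7 and 4 of 5 in wild type replicates 3 and 4. Over all genes, the share wholly downstream was 67.9% to 71.1% in the short lists and 9.13% to 14.3% in the long lists. Most narrow Kcn peaks lay where a long list had a peak too. Long-list peaks overlapped 15 of 15 and 5 of 6 gene-end peaks in knock-in replicates 3 and 4, and 7 of 7 and 3 of 3 in wild type replicates 3 and 4. The same held over all genes, at 96.3% to 98.5% of gene-end peaks. The next count uses the outer gene ends and not the listed start sites. Of the 25 detected Kcn genes with a listed strand, 21 had peaks at the start only, 3 at both ends and 1, Kcnh6, at the end only. The listed start site can lie far from the outer gene end. In knock-in replicate 1 the peak ran from -44137 to -40850 bp from that site at Kcnj12, and from -22765 to -21336 bp at Kcnh2.

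At Kcnc1 the main peak ran from position -673 to 2526 bp, counted from the listed start, in knock-in replicate 1, against -347 to 2803 bp in wild type replicate 1. In knock-in replicate 3 the first peak ran from 62 to 368 bp, against 177 to 435 bp in wild type replicate 3. At Kcnd3 the peak ran from -661 to 1602 bp in knock-in replicate 1 and from -324 to 1367 bp in knock-in replicate 2, against -268 to 1237 bp in wild type replicate 1 and -294 to 1218 bp in wild type replicate 2. Both edges of the knock-in peaks at Kcnd3 lay outside those of the wild type peaks, without allowance for the width of peaks in each list. The median width over all genes tested was 1582 and 1515 bp in the knock-in long lists, against 1429 and 1191.5 bp in wild type.

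**Figure D5:**
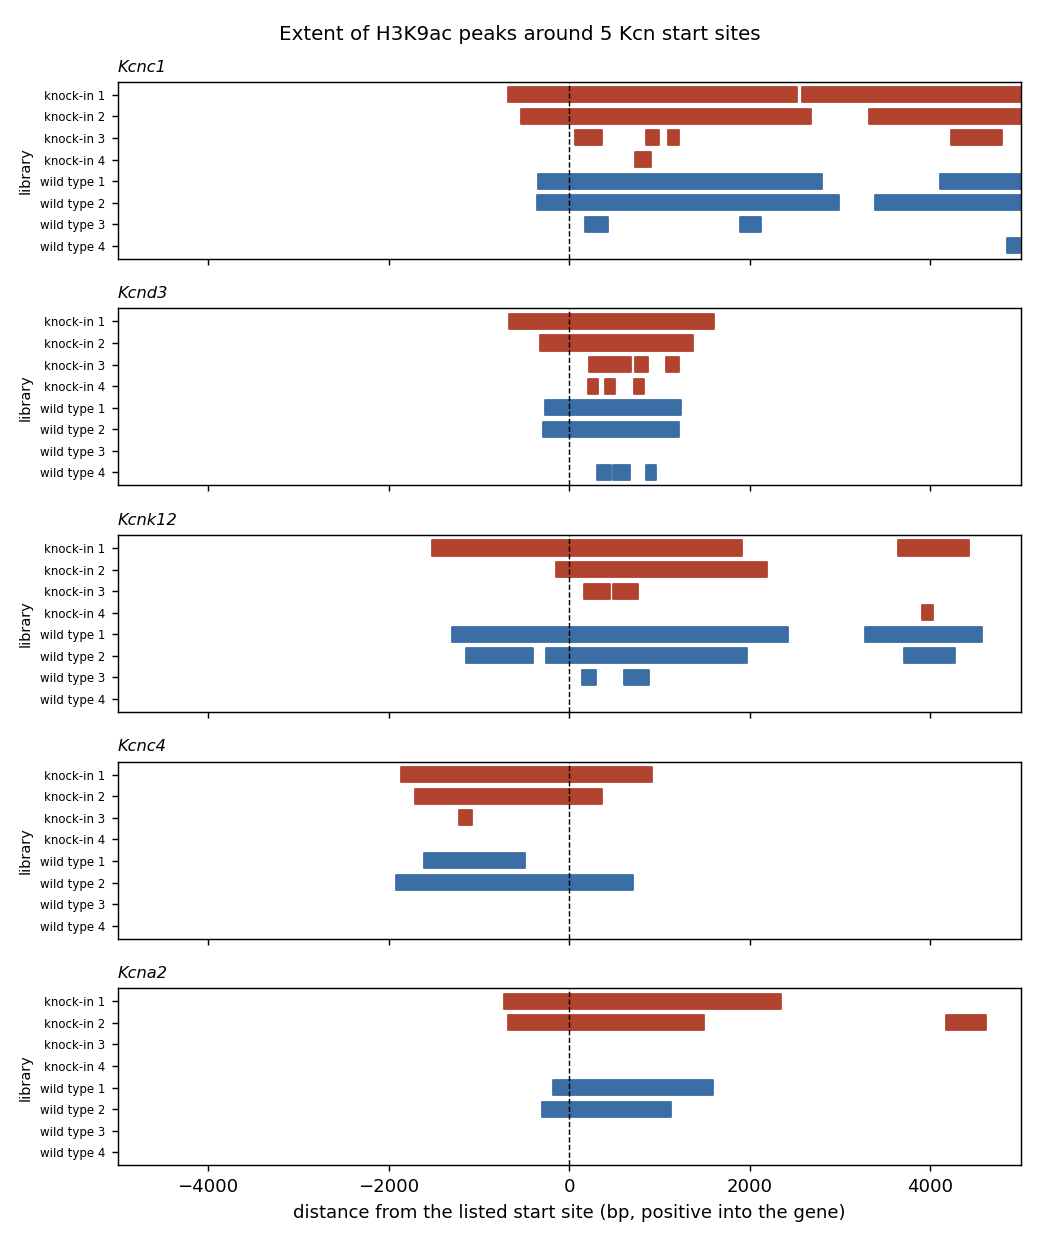
Extent of H3K9ac peaks in each library around the listed start sites of Kcnc1, Kcnd3, Kcnk12, Kcnc4 and Kcna2, with distance from the start in bp on the horizontal axis, positive into the gene, cut at the edge of the plot (red for knock-in, blue for wild type). Bars of replicates 1 and 2 mostly cross the dashed start line, and bars of replicates 3 and 4 are short and mostly lie after it.

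Genes whose products work beside potassium channels were detected more often than the Kcn genes, and no test was made of that. Of 27 such genes, among them the Hcn channels of the pacemaker current, scaffold proteins and calmodulins, 22 were detected at a gene end, in 22, 20, 9 and 1 genes in knock-in replicates 1 to 4 and in 19, 13, 3 and 1 in wild type replicates 1 to 4. Detection in at least 1 library reached 81.5% of them and detection in all 4 long lists 44.4%, where Kcn genes had 42.6% and 23.4%. A peak was present in more knock-in libraries at 14 of these 22, where the share among all 9851 detected genes was 48%. It was present in more wild type libraries at 0, where the share among all detected genes was 11.6%. The other 8 were equal. Those that differed by 2 libraries were Hcn3, in 3 knock-in and 1 wild type library (conditional exact p = 0.0533, adjusted p = 1), and Ank3, which anchors channels at the axon start, in 2 knock-in and 0 wild type libraries (conditional exact p = 0.501, adjusted p = 1). Abcc8, the regulatory partner of Kcnj11 and its neighbour on chromosome 7, was detected in the 4 long lists.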

How the data were processed

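H3K9ac ChIP-seq of cerebellum was deposited as 1 peak list per library. Each list was made by the authors with MACS run in Galaxy, per the file headers. Per the submitters' processing notes Bowtie2 and mm10 were used. The deposited score is the authors' own value per peak, on a scale not given in the sources used here, and gave only ranks inside each list. Lists hold no read counts, so depth is unknown. Of 52676 peaks, 15 began before position 0 and were trimmed to it.

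Titles gave the groups. Whether replicates were separate animals is not stated, so p-values reflect only how far these libraries vary, possibly for technical reasons. The Kcn genes, roles and gene lists were chosen with earlier results of these data known.

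Gene ends and promoters were taken from RefSeq (GRCm38.p6), with any overlap of 1 bp counted. The gene table gives no strand, which was taken from the promoter table. Detection was tested with a conditional exact test under library odds from a Rasch model, over genes held by 1 to 7 libraries, and width with limma 3.58.1 in R 4.3.3, both with Benjamini-Hochberg adjustment over all genes and a threshold of 0.05. Both were tested on simulated data. Python 3.11.15 with scipy 1.17.1 was used.

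Values are given for Kcn genes detected in 5 or more libraries, those differing by 2 libraries, the 5 widest and 3 narrowest, the 5 highest in score rank, the 3 with the smallest width p, and the cerebellar list. Other names, such as genes detected once, genes with inner peaks and Kcnk10, were chosen after their values were seen. Promoters shown belong to genes detected in 5 or more libraries with a peak over the promoter in at least 3, and to the first 2 cerebellar genes without a gene-end peak. Alternatives were windows of 500 bp and 3 kb, start sites only, an overlap of 100 bp, lists of equal length, Fisher's exact test, no centring, the widest single peak, a replicate block and each library left out. Some genes that these rules name are not reported here.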

Additional observations from a re-analysis of the deposited data

How the results depend on the processing

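No Kcn gene was called for detection or width under any alternative run. Leaving out each library in turn gave 0 to 1 called genes of all genes for detection and 0 to 3 for width. The 1 came without wild type replicate 2, and the 3 without knock-in replicate 1 and again without knock-in replicate 2. The width fits without 1 library leave a group of 1, assumed to vary like the other genotype. The mean number of detected Kcn genes ran from 6.75 to 32 in knock-in and from 5.25 to 24.5 in wild type, lowest with lists cut to the 1266 highest-scoring peaks and highest with replicates 1 and 2 alone, an alternative chosen after seeing the data. Leaving out 1 library gave 15.3 to 25.0 in knock-in and 10.3 to 18.3 in wild type. Alternatives for detection at 25 named genes and for width at Kcnj6, Kcnip3 and Kcna1 numbered 465. Of these, 325 kept the sign of the difference (or kept it at 0), 32 brought it to 0, 104 moved it off 0 and 4 turned it round. At a gene held equally by both genotypes, leaving out 1 library moves the difference in share off 0 by arithmetic. The count of 104 therefore says little about stability. With a window of 3 kb the difference in the share of libraries (knock-in minus wild type) at Kcnh7 became -0.25 and the log2 width difference at Kcna1 -0.20, where the wider window takes in a neighbouring peak of 2538 bp in wild type replicate 2. With lists of equal length the difference in share became -0.25 at Kcnc4 and at Kcnip4. The cause was not tested at Kcnh7, Kcnc4 and Kcnip4. A window of 500 bp gave no width at Kcnj6 and Kcnip3. Same-numbered libraries deviated together with correlations of 0.05, 0.11, 0.14 and 0.41. Not every pair was above 0.1, and the main tests did not treat the libraries as pairs. Whether the numbers pair the samples is not known. Of the 4 knock-in libraries 3 correlated best with their own number, and of the 4 wild type libraries 2 did. Such deviations also reflect list length, so these correlations cannot tell whether the numbers pair the samples. With the replicate block, 0 genes were called for detection and 0 for width. Depth is unknown, so a missing peak does not show that the mark was absent.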

Other observations

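Of 4 non-coding genes whose symbols begin with Kcn, a pair had gene-end peaks. Kcnd3os, a long non-coding gene on chromosome 3 at 105448190 to 105452955, had them in 4 knock-in and 3 wild type libraries, at the same places as Kcnd3. Kcnmb4os2, on chromosome 10 at 116473163 to 116474987, had them in 2 knock-in and 2 wild type libraries. Kcnmb4os1 and Kcnq1ot1, an imprinted non-coding gene inside Kcnq1, had none in any library.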
